A study of Homo sapiens with 24 samples.

Results

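MCF10A is a non-tumorigenic human breast epithelial cell line that depends on epidermal growth factor (EGF) for proliferation. The 8 arrays described here come from MCF10A cells transfected, with Oligofectamine, with an oligonucleotide directed against the microRNA hsa-miR-671-5p, which the labels call si-miR-671. They were chosen by their labels alone, and are 8 of the 24 arrays of the study. The 4 late arrays were taken 60 and 120 min after EGF was added, 2 arrays at each time, and the 4 early arrays at 0 and 30 min, again 2 at each time. The other 16 arrays hold cells transfected in the same way with a non-targeting oligonucleotide (si-control, 8 arrays) or with one against hsa-miR-20a (si-miR-20a, 8 arrays), at the same 4 times and with 2 arrays per group. All groups share the cell line, its growth medium, which itself contains EGF, insulin, hydrocortisone, cholera toxin and horse serum, and the transfection reagent. Arrays of cells kept without EGF for 60 or 120 min are not among the groups, so time after the start of the experiment and EGF cannot be told apart. The replicates are labelled biological, but nothing says whether the early and late dishes were transfected together.

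MicroRNAs are short RNAs that pair, mainly through bases 2 to 8 of their 5′ end (the seed), with sites in messenger RNAs and lower their stability and translation, and an oligonucleotide complementary to a microRNA is meant to relieve that. EGF acts through the EGF receptor and the ERK kinases to switch on immediate early transcription factors within the first hour, and then the feedback inhibitors, ligands and cytokines that shape the response. Epithelial cells such as these also carry a set of secreted defence proteins, among them calprotectin, lipocalin-2, serum amyloid A and complement components, which NF-kappaB, STAT3 and C/EBP factors control. The question of the comparison is which genes set the late si-miR-671 arrays apart from the early ones beyond the change that EGF brought in the other transfections.

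The microRNAs named in the labels have different seeds, shown in capitals in the mature sequences from RefSeq (GRCh38.p14), which are given because the labels identify the transfections only by these names. The gene of hsa-miR-671-5p places the mature RNA at chr7:151238449-151238471 on the plus strand, and that of hsa-miR-20a-5p at chr13:91351072-91351094 on the plus strand. The arrays measured neither mature microRNA.
hsa-miR-671-5p: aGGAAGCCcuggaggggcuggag
hsa-miR-20a-5p: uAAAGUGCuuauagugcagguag

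The values are the authors' normalized log2 levels from Affymetrix Human Gene 1.0 ST arrays, an oligonucleotide array with 33297 probe sets here, of which 19460 carry exactly 1 gene symbol and stand for 18417 genes. Array medians lay between 6.56 and 6.57. Replicates correlated at 0.973 to 0.992 over these probe sets, and the SD of the difference between 2 replicates ran from 0.23 at 60 min to 0.431 at 120 min, both in the si-miR-671 groups. Markers of basal epithelium had a median level of 11.15 (7 measured), against 6.96 for luminal markers, 6.48 for mesenchymal and 5.98 for blood and endothelial markers, with 7.21 for all genes. Gene levels below are log2 values. A change is a difference of mean log2 values, late minus early, and "less the others" means that the mean of the same change in si-control and si-miR-20a was subtracted.

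The late and early si-miR-671 arrays did not stand in the same place relative to the other transfections, and each result below carries this. The 54 genes whose si-miR-20a and si-control levels differed by at least 1 log2 unit on average over the 4 times were chosen without the si-miR-671 arrays. Measured from si-control towards si-miR-20a at the same time, the median over these genes was 0.82, 0.76, 0.68 and 0.74 on the early si-miR-671 arrays and 1.31, 1.44, 1.41 and 1.21 on the late ones. The si-miR-20a arrays themselves lay at 1.15, 1.28, 1.27 and 1.25 at 0, 30, 60 and 120 min. For these 54 genes the early arrays thus lay between both other transfections, while the late arrays lay at or near si-miR-20a.

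Among the 524 genes with a smaller difference between si-miR-20a and si-control, of 0.5 to 1 log2 unit, the distances were 0.3, 0.28, 0.25 and 0.3 on the early arrays and 0.66, 0.67, 0.6 and 0.49 on the late ones, with si-miR-20a at 0.58 to 0.68. Of the 524, between 210 and 283 were nearer to si-miR-20a than to si-control on the early arrays, and between 366 and 465 on the late arrays. No early array reached the distance of any late array in either group of genes. Over all 18417 genes, 39.7% to 43.0% were nearer to si-miR-20a on the early arrays. On the late arrays the shares were 57.9%, 60.4%, 53.4% and 43.2%. By that share the second array at 120 min lay close to the early arrays. The genes, the direction and the starting point of these distances come from the si-control and si-miR-20a arrays. The distances are a description of position, and the difference between early and late arrays was not tested. Whether the early and late arrays differ in transfection or handling is not stated, and such a difference cannot be told apart from the time of EGF.

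**Figure D1:**
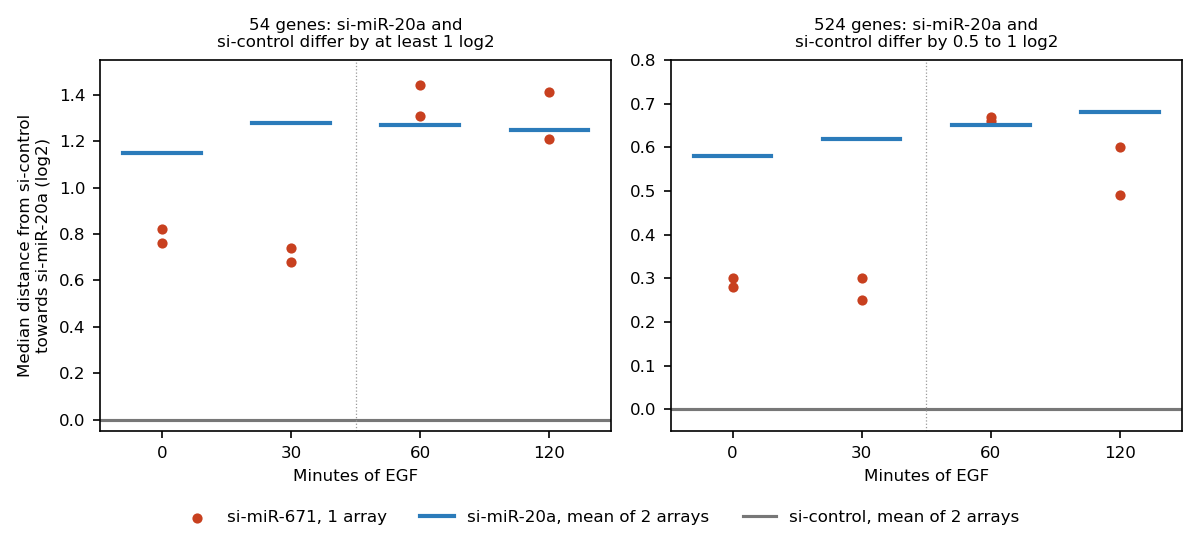
Position of the si-miR-671 arrays between the other transfections. The y axis is the median over genes of the distance from the si-control mean in the direction of si-miR-20a (log2 units), the x axis minutes of EGF; red points are single si-miR-671 arrays, blue bars the si-miR-20a mean and the grey line si-control at 0. In the left panel (54 genes) the early arrays lie at 0.68 to 0.82 and the late arrays at 1.21 to 1.44, and in the right panel (524 genes) at 0.25 to 0.3 and 0.49 to 0.67.

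Late si-miR-671 arrays differed from early ones in many genes, and a smaller number changed beyond the other transfections. In limma's moderated test over all 19460 probe sets (Benjamini-Hochberg adjusted p under 0.05), 1804 probe sets (9.27%) changed between early and late si-miR-671 arrays, 816 upwards (4.19%) and 988 downwards (5.08%). The same change was called for 473 probe sets (2.43%) in si-control, 378 up (1.94%) and 95 down (0.488%), and for 1100 (5.65%) in si-miR-20a, 865 up (4.45%) and 235 down (1.21%). Less the others, 458 probe sets (2.35%) were called, 121 higher (0.622%) and 337 lower (1.73%), of which 18 higher (0.0925%) and 89 lower (0.457%) differed by at least 1.5-fold. Falls thus outnumbered rises in si-miR-671, in contrast to the counts in the other transfections, although the counts themselves were not tested against each other.

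At the level of genes, each taken at its probe set with the highest mean, 431 were called less the others, 114 higher and 317 lower. The median size of these changes was 0.44 and 101 of them reached 1.5-fold. Of the 431, 73 (15 higher and 58 lower) were called in each of the 24 fits that left out 1 array. The rest lost the call in at least 1 of them, and without the second si-miR-671 array at 60 min 95 probe sets were called. All 431 kept their direction when the late arrays were those at 60 min alone or at 120 min alone, with 98 and 85 of them called and 41 called both times. The 431 were called on the mean of these same arrays, so the shared direction is in part built in. Against si-control alone 101 probe sets were called (0.519%), and against si-miR-20a alone 259 (1.33%). Of the called genes, 112 higher and 309 lower had 4 late arrays on one side of all 4 early ones after the others were subtracted at each time. Over all probe sets this held for 6.49% with late arrays higher and 10.1% with late arrays lower, and for the log2 levels themselves for 7.78% and 9.45%.

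**Figure D2:**
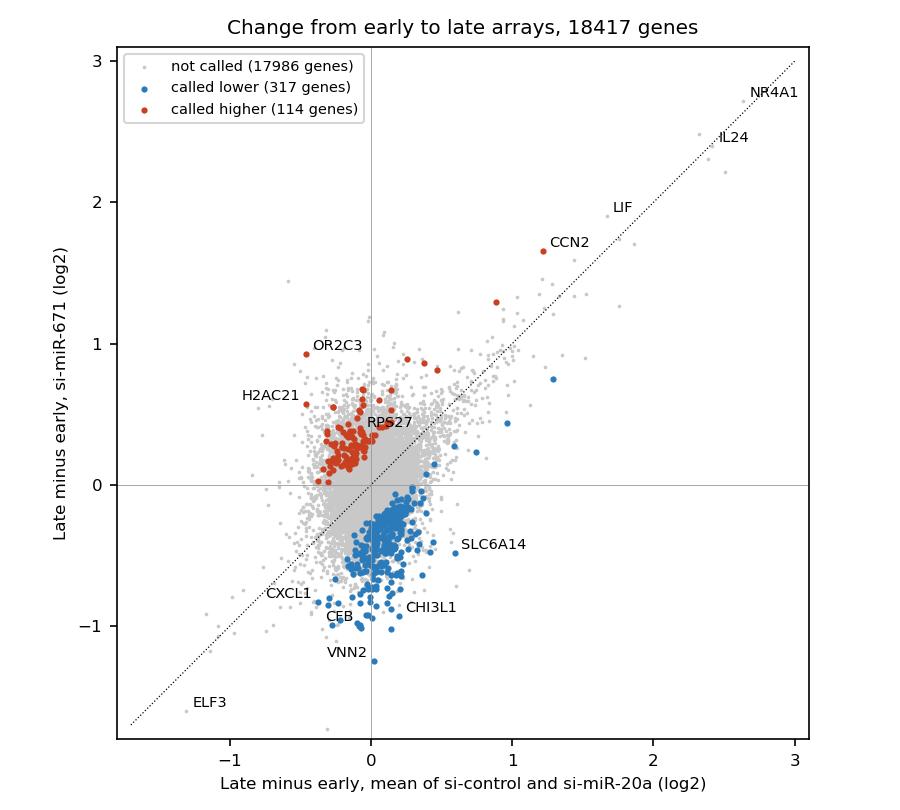
Change from early to late arrays in si-miR-671 (y axis, log2) against the mean of the same change in si-control and si-miR-20a (x axis, log2), 1 point for each of 18417 genes; blue and red mark the 317 genes lower and 114 higher less the others. EGF-responsive genes such as NR4A1 and IL24 lie on the dotted line of equal change, while most of the called genes lie above or below a change near 0 in the others.

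The genes called lower began near si-control and ended below both other transfections. Their median was 0.16 above the mean of the others on the early arrays and 0.29 below it on the late ones (-0.29). Less si-control alone it was 0.00 early and -0.45 late, and less si-miR-20a alone 0.35 early and -0.14 late. On the early arrays 248 of the 317 were nearer to si-control (78.2%, against 60.9% of all genes), and on the late arrays 290 were nearer to si-miR-20a (91.5%, against 62.2%). The 114 genes called higher ran the other way, from -0.19 early to 0.25 late relative to the mean of the others, and 101 of them were nearer to si-miR-20a on the late arrays. These positions use the arrays that made the calls and are given as a description.

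Secreted defence and acute phase genes had the largest median shift of the gene lists. This list, like the others, was chosen with earlier results of these data known. Its rank and counts are therefore a description and carry no independent support. Of the 15 measured members of the list of calprotectin, lipocalin and acute phase genes, 8 fell less the others and none rose, with a median change of -0.54 against 0.00 over all genes, where 317 of 18417 fell. In si-miR-671 itself 11 fell, where 931 of all 18417 genes fell, and the list median was -0.63. That median was -0.04 in si-control and -0.05 in si-miR-20a. The list's median level less the others was -0.12, -0.22, 0.02 and -0.16 on the early arrays and -0.63, -0.89, -0.89 and -0.62 on the late ones, so that the early and late arrays did not overlap. The number of members that fell ranged from 3 to 8 over fits that left out 1 array, and it was 3 with the late arrays at 60 min or at 120 min alone.

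CFB, which encodes complement factor B, the serine protease of the alternative complement pathway, gave the smallest adjusted p of all genes. Its level was 9.24, 9.18, 9.25 and 9.12 on the early arrays and 8.35, 8.22, 8.11 and 8.15 on the late ones. The late arrays all lay below the early ones, while si-control stayed between 9.81 and 10.19 and si-miR-20a between 8.41 and 8.80 at all times. The change less the others was -0.91 ± 0.07 (SE), a 1.88-fold fall (limma adjusted p = 1.9e-05). Its 3 probe sets changed by -0.91 to -0.90, and whether they share probes is not given here.

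S100A8, a subunit of the neutrophil and epithelial protein calprotectin, read 11.34, 11.34, 11.32 and 11.20 on the early arrays and 10.53, 10.18, 10.07 and 10.37 on the late ones. Again no late array reached an early one, and the late levels lay within those of si-miR-20a late (10.11 to 10.68) apart from 1 array just below. The fall less the others was 1.92-fold (-0.94 ± 0.13, adjusted p = 0.0045). Its partner S100A9 changed by -0.75 and missed the threshold (adjusted p = 0.057).

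CHI3L1, a secreted chitinase-like glycoprotein, stood at 6.91, 7.02, 7.24 and 7.02 early and at 6.06, 6.18, 5.85 and 6.37 late. That is 2.18-fold lower less the others (-1.13 ± 0.17, adjusted p = 0.0058), from a place between si-control (7.70 to 8.06 early) and si-miR-20a (5.84 to 6.32 early) to within the late range of si-miR-20a (5.75 to 6.42). LCN2, the iron-siderophore binding protein lipocalin-2, went from 6.92, 6.79, 6.83 and 6.84 to 6.45, 5.94, 5.83 and 6.10, a change of -0.92 ± 0.18 (adjusted p = 0.019). The LCN2 call was lost in 4 of the 24 fits without 1 array.

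The remaining called members of the list were VNN2, a pantetheinase of the vanin family (-1.27 ± 0.31, adjusted p = 0.0495), SAA2, an acute phase serum amyloid (-0.50), PI3, the elastase inhibitor elafin (-0.54), and C3, the central complement component (-0.34, adjusted p = 0.049). VNN2 was spread over the late arrays, at 4.29, 2.89, 3.61 and 2.59 against 4.76, 4.41, 4.78 and 4.41 early, and its call held in 3 of the 24 fits without 1 array. SAA1 (-0.43), VNN1 (-0.32), CHI3L2 (-0.67) and SLPI (-0.27) were below 0 without passing, and ORM1 and HP were at 0.08 and -0.02. The serum amyloid pseudogene SAA3P, outside the list, fell 2.23-fold (-1.16 ± 0.20, adjusted p = 0.010), and a probe set for it cannot be told apart from its close relatives SAA1 and SAA2 where probes are shared.

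**Figure D3:**
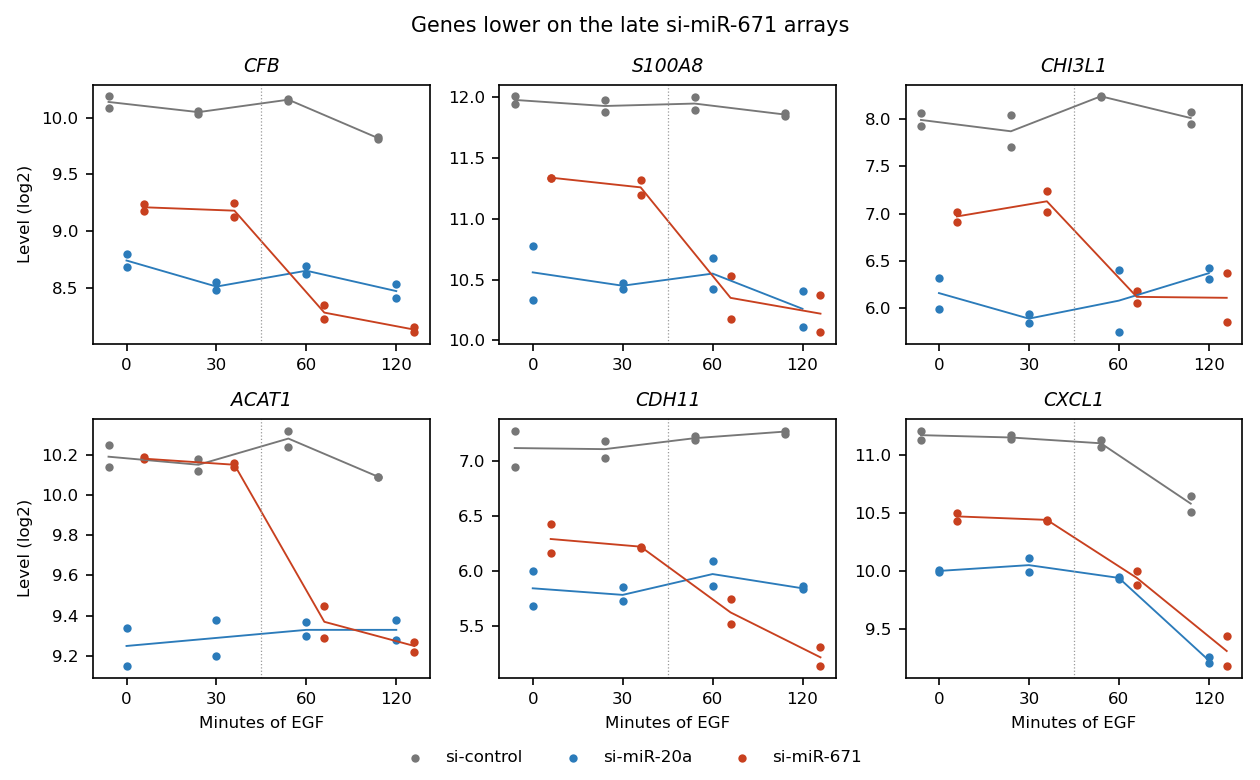
Level (y axis, log2) of 6 genes called lower less the others against minutes of EGF (x axis); each point is 1 array, lines join the means of the 2 arrays of a group, and the dotted line parts early from late. CFB, S100A8, CHI3L1, ACAT1 and CDH11 step down in si-miR-671 between 30 and 60 min and are steady in si-control and si-miR-20a, while CXCL1 also falls by 120 min in both of those.

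Cytokine genes were mixed. Of 20 measured cytokine, chemokine and NF-kappaB feedback genes, 2 fell less the others, CXCL1 and IL6, and none rose (median -0.06). Of all 18417 genes 317 fell and 114 rose. CXCL1, a neutrophil-attracting chemokine, read 10.43, 10.50, 10.43 and 10.44 early and 10.00, 9.88, 9.18 and 9.44 late, where it fell in the other transfections as well (-0.32 in si-control and -0.44 in si-miR-20a). Less that, its fall was 1.37-fold (-0.45 ± 0.08, adjusted p = 0.010), and it was called in all 24 fits without 1 array. IL6, which encodes interleukin-6, was at 5.71, 5.56, 6.84 and 6.68 early and at 6.21, 6.16, 4.38 and 4.69 late, so that its early and late levels overlapped. Its change less the others was -0.60 ± 0.12 (adjusted p = 0.024). CXCL2 (-0.30), CXCL3 (-0.21), TNFAIP2 (-0.46) and ICAM1 (-0.48) did not pass, and NFKBIA, the NF-kappaB inhibitor, was at 0.01 (adjusted p = 0.98) although it fell by 1.07 in si-miR-671 itself.

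The promoters of CXCL1, IL6 and LCN2 are shown because these 3 genes of secreted products were called lower less the others and were picked for start regions that hold letters of the kinds that NF-kappaB and C/EBP factors bind. Each window runs from 250 bases before to 50 bases after the RefSeq start (GRCh38.p14, plus strand for all 3): chr4:73869143-73869442, chr7:22726950-22727249 and chr9:128149203-128149502. Capitals mark matches, on either strand, to an NF-kappaB motif (GGGA, any base, TT, any base, CC) or a C/EBP motif (TTGC, any 2 bases, AA), which share no position here. An NF-kappaB match begins 79 bases before the start of CXCL1 and 73 bases before that of IL6, and a C/EBP match 155 bases before the start of IL6 and 143 bases before that of LCN2. Of 27305 such windows, 1.41% hold the first motif and 10.6% the second, and of the windows of measured genes 1.46% and 8.35%. The RefSeq table held a window for 247 of the 317 genes called lower (77.9%, against 77.3% of all measured genes). It held one for 8 of the 15 acute phase genes (53.3%), too few for a comparison of that list. Of the 247 windows 7 hold the NF-kappaB motif (2.83%) and 24 the C/EBP motif (9.72%), and of the 8, 1 and 2. These shares were not tested against each other. A match is a description of letters, and binding was not measured. Stretches close to a motif without matching it, such as gggaatgtcc in LCN2, are not marked. Small letters therefore do not show that a site is absent.
CXCL1: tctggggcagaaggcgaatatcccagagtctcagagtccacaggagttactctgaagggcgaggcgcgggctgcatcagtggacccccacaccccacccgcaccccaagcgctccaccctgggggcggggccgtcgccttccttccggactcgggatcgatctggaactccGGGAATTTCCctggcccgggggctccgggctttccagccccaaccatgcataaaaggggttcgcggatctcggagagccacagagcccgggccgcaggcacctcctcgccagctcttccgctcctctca
IL6: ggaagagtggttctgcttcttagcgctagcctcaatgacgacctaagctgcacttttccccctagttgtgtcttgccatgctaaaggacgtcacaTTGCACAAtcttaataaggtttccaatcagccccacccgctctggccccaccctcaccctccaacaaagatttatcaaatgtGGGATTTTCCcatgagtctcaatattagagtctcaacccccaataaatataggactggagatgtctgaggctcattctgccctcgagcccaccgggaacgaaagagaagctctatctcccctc
LCN2: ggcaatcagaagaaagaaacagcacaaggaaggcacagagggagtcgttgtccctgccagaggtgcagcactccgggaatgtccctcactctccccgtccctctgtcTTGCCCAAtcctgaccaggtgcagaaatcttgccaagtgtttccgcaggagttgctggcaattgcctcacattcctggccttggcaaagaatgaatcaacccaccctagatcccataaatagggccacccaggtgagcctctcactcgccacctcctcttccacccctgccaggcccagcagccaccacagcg

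Further large falls concerned genes of metabolism, adhesion and lipid signalling. ACAT1, the mitochondrial acetyl-CoA acetyltransferase of ketone body and isoleucine metabolism, was the clearest of these. It read 10.18, 10.19, 10.16 and 10.14 on the early arrays, within the si-control range of 10.09 to 10.32, and 9.45, 9.29, 9.22 and 9.27 on the late arrays, close to the si-miR-20a range of 9.15 to 9.38. All 4 late arrays lay below all 4 early ones, and the fall less the others was 1.86-fold (-0.90 ± 0.08, adjusted p = 5e-05).

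CDH11, cadherin-11, an adhesion molecule best known from mesenchymal cells, went from 6.43, 6.16, 6.22 and 6.21 to 5.74, 5.51, 5.30 and 5.13, and the 120 min arrays were below every si-miR-20a array (5.68 to 6.09). Its change less the others was -0.95 ± 0.12 (adjusted p = 0.0025). The mesenchymal marker list as a whole did not follow it: none of 14 members was called and the median was -0.09. Of all 18417 genes 114 rose and 317 fell. PLPP3, a phosphatase of bioactive lipid phosphates, fell by 0.91 ± 0.11 (adjusted p = 0.0025), with 6.98, 7.16, 7.17 and 7.11 early against 6.51, 6.47, 5.66 and 5.78 late. PTGFR, the prostaglandin F receptor, fell by 1.02 ± 0.18 (adjusted p = 0.011) and SNCAIP, synphilin-1, by 0.95 ± 0.14 (adjusted p = 0.0058), both without overlap of early and late arrays.

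Among extracellular matrix genes, 2 of 27 fell, CDH11 and SULF1, and LAMB3 rose (median -0.04), where 317 of all 18417 genes fell and 114 rose. SULF1, which removes sulfate groups from heparan sulfate, fell by 0.89 ± 0.20 (adjusted p = 0.032), a call that held in 9 of 24 fits without 1 array. LOX, which crosslinks collagen and elastin and stands in the hypoxia list, fell by 0.64 ± 0.12 (adjusted p = 0.014), from 8.50, 8.57, 8.69 and 8.58 to 7.99, 7.95, 7.93 and 7.95. The late LOX levels lie at the low end of si-miR-20a (7.91 to 8.33) and well under si-control (9.07 to 9.33). SLC6A14, an amino acid transporter, passed through the difference alone: its change was 0.65 in si-control (adjusted p = 0.055), 0.54 in si-miR-20a (adjusted p = 0.071) and -0.48 in si-miR-671 (adjusted p = 0.082), none of which passed, giving -1.07 ± 0.20 less the others (adjusted p = 0.016).

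Some subunits of large protein complexes fell as well. NDUFC1, a subunit of respiratory complex I, read 10.38, 10.46, 10.38 and 10.44 early and 9.94, 9.86, 9.90 and 9.93 late (-0.45 ± 0.07, adjusted p = 0.0063). PSMA6, an alpha subunit of the 20S proteasome, read 10.65, 10.64, 10.50 and 10.56 early and 10.15, 10.14, 10.00 and 10.04 late (-0.44 ± 0.07, adjusted p = 0.005). In both genes the early levels were near those of si-control (10.29 to 10.40 for NDUFC1) and the late levels near those of si-miR-20a (9.65 to 9.99 for NDUFC1). Less the others, of 80 respiratory chain subunits 1 rose and 2 fell (median -0.01), and of 36 proteasome subunits 1 rose and 4 fell (median -0.04), where 114 of all 18417 genes rose and 317 fell. The proteasome count ran from 1 to 7 falls over fits without 1 array. In si-miR-671 itself 15 respiratory chain and 6 proteasome subunits fell (931 of all genes), against 0 and 0 in si-control and in si-miR-20a, although the list medians were -0.11 and -0.09 in si-miR-671, -0.11 and -0.05 in si-control and -0.12 and -0.03 in si-miR-20a. The other called proteasome genes included PSMD6 of the regulatory particle (-0.50) and the immunoproteasome subunit PSMB9 (-0.38). Of 73 mitochondrial ribosomal proteins MRPS15 alone was called (-0.42 ± 0.08, adjusted p = 0.018).

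A few small nucleolar and Cajal body RNAs were called, in both directions. SCARNA9, a Cajal body RNA that guides modification of spliceosomal RNA, fell from 9.39, 9.40, 9.28 and 9.32 to 8.68, 8.41, 8.38 and 8.22 (-0.90 ± 0.15, adjusted p = 0.010), and its second probe set, at -0.98, was not called. SNORD54, a nucleolar RNA of the C/D class, fell by 0.69 ± 0.13 (adjusted p = 0.014), whereas SNORD55 of the same class rose by 0.67 ± 0.11 (adjusted p = 0.0089). SNORD55 read 7.45, 7.51, 7.41 and 7.30 early and 7.67, 7.83, 7.83 and 7.80 late. Over all 192 measured small nucleolar and Cajal body RNAs, 2 rose, 5 fell and 124 lay below 0, with a median of -0.12. Of all 18417 genes 114 rose, 317 fell and 9278 lay below 0. Of 480 genes with ZNF names, mostly zinc finger repressors, 1 rose and 12 fell, among them ZNF721 (-0.45), ZNF33B (-0.66) and ZNF763 (-0.76), with a list median of -0.05, where 317 of all 18417 genes fell. The number of ZNF genes that fell ran from 1 to 25 over fits without 1 array.

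Histone genes had the highest list median. Of 56 replication-dependent histone genes, which are made in S phase and end in a stem-loop instead of a poly(A) tail, 4 rose less the others and none fell, 46 were above 0 and the median was 0.17. Over all 18417 genes 114 rose, 9139 were above 0 and the median was 0.00. The list fell further in the other transfections: its median change was -0.33 in si-control, -0.28 in si-miR-20a and -0.08 in si-miR-671. The list's median level less the others was 0.13, -0.06, 0.22 and 0.01 on the early arrays and 0.13, 0.02, 0.27 and 0.57 on the late ones, which overlap. With the late arrays at 60 min alone the median was 0.02, and at 120 min alone 0.37. The number that rose ranged from 1 to 11 over fits without 1 array, and was 11 without the first si-miR-20a array at 120 min.

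H4C3, one of the histone H4 genes, read 8.68, 8.67, 8.51 and 8.68 early and 9.41, 9.32, 8.96 and 9.04 late. It rose 1.77-fold less the others (0.82 ± 0.11, adjusted p = 0.0025) and was called in all 24 fits without 1 array. H2AC21, an H2A gene, read 8.91, 8.78, 8.91 and 8.64 early and 9.42, 9.46, 9.36 and 9.29 late, while si-control fell to between 8.26 and 8.55 late (1.03 ± 0.20, adjusted p = 0.020). At 120 min its si-miR-20a replicates were 9.36 and 8.22, further apart than the change itself. H1-5, a linker histone, rose by 0.55 ± 0.10 (adjusted p = 0.014). Histone genes are near-identical in sequence, so the array may not part one member from another.

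**Figure D4:**
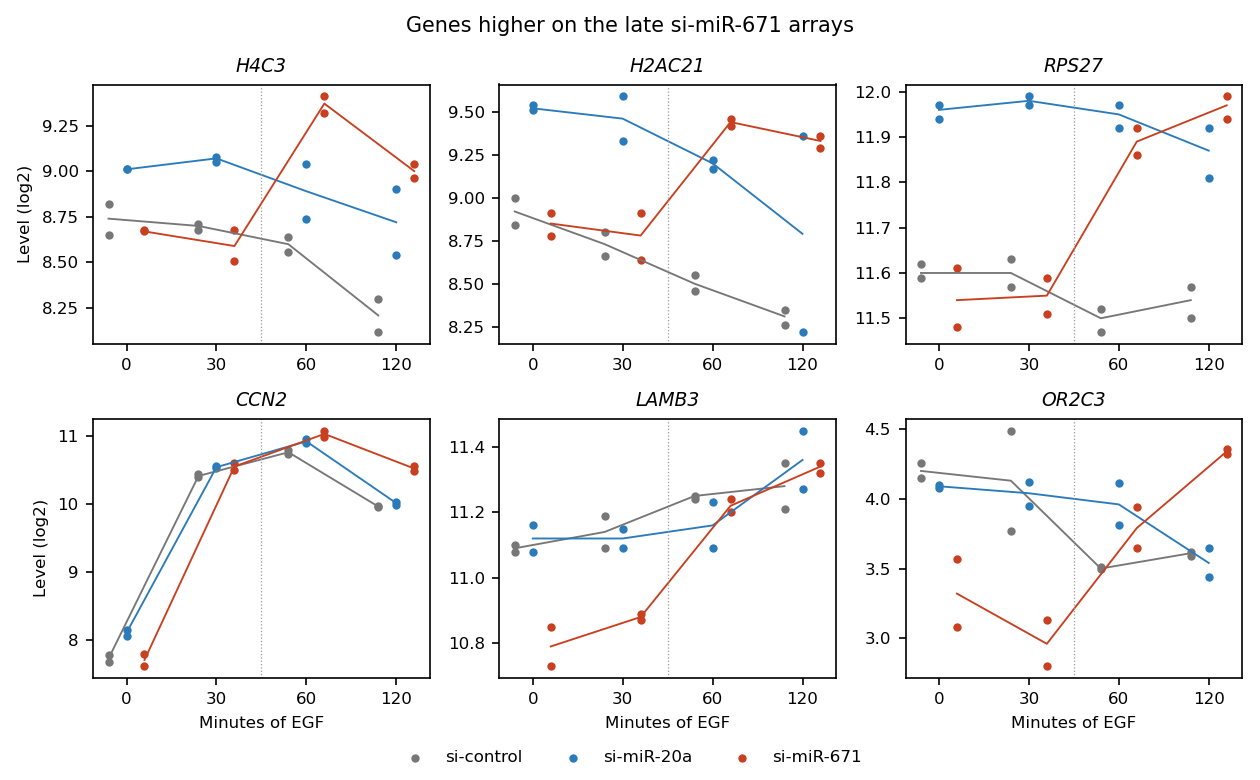
Level (y axis, log2) of 6 genes called higher less the others against minutes of EGF (x axis), drawn as for the falling genes. RPS27 goes in si-miR-671 from the level of si-control (11.48 to 11.61) to that of si-miR-20a (11.86 to 11.99), LAMB3 goes from below both others to their level, and CCN2 is induced by 30 min in all 3 transfections and is higher in si-miR-671 at 120 min.

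RPS27, a protein of the small ribosomal subunit, showed the same early and late positions in the rising direction. Its levels were 11.61, 11.48, 11.59 and 11.51 early and 11.86, 11.92, 11.94 and 11.99 late (0.46 ± 0.06, adjusted p = 0.0039), against 11.47 to 11.63 in si-control and 11.81 to 11.99 in si-miR-20a. RPS14 rose by 0.34 ± 0.07 (limma adjusted p = 0.029). No other of the 62 cytosolic ribosomal proteins was called (median -0.03), where 114 of all 18417 genes rose and 317 fell.

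CCN2, the matricellular growth factor that SRF and YAP induce, read 7.61, 7.79, 10.60 and 10.50 on the early arrays and 10.99, 11.08, 10.49 and 10.56 on the late ones, so the levels themselves overlapped. Less the others it rose by 0.43 ± 0.07 (adjusted p = 0.0065), in all 24 fits without 1 array. AMOTL2, an angiomotin family gene of the YAP pathway, rose by 0.53 ± 0.13 (adjusted p = 0.048), and the median of the 21 measured SRF and YAP targets was 0.08. LAMB3, the beta chain of laminin-332 in the basal epithelial marker list, went from 10.73, 10.85, 10.87 and 10.89 to 11.24, 11.20, 11.32 and 11.35 (0.30 ± 0.07, adjusted p = 0.045). It was the member of 7 measured basal markers that passed. Of all 18417 genes 114 rose and 317 fell.

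Several of the largest rises were in genes near the floor of the array. OR2C3, an olfactory receptor gene with a mean level of 3.79, read 3.57, 3.08, 3.13 and 2.80 early and 3.94, 3.65, 4.32 and 4.36 late (1.39 ± 0.18, adjusted p = 0.0025), and no other of 360 olfactory receptor genes was called. Of all 18417 genes 114 rose and 317 fell. PSAPL1, a prosaposin relative, rose by 0.82 ± 0.14 (adjusted p = 0.011) from 4.75, 4.64, 5.01 and 5.10 to 5.48, 5.59, 5.38 and 5.25. ESRRG, an orphan nuclear receptor (0.70), RGS13, a regulator of G protein signalling (0.67), TNFSF18, the ligand of the receptor GITR (0.63), and NHLH1, a neuronal helix-loop-helix factor (0.62), were called at mean levels below the median of all genes. TENM1, a teneurin adhesion protein with levels above that median, rose by 0.62 ± 0.11 (adjusted p = 0.015), from 7.43, 7.72, 7.35 and 7.54 to 8.19, 7.86, 8.03 and 8.22.

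Growth control genes gave few calls less the others, where 114 of all 18417 genes rose and 317 fell. Of 29 mitosis genes CENPE, a kinetochore motor, fell (-0.62 ± 0.14, adjusted p = 0.036) and none rose (median -0.02). Of 30 G1/S and replication genes CDC7, the kinase that fires replication origins, fell (-0.52) and CDC45, a part of the replicative helicase, rose (0.41), with a list median of 0.10. Among 22 p53 targets FAS, a death receptor, and CCNG1, cyclin G1, fell by 0.44 and 0.42, and XPC, a DNA damage sensor, rose by 0.42. Fatty acid synthase, FASN, rose by 0.42 ± 0.09 (adjusted p = 0.025) and SC5D, an enzyme of cholesterol synthesis, fell by 0.36 ± 0.09 (adjusted p = 0.044). HIF1A, the oxygen-regulated transcription factor, read 11.39, 11.44, 11.34 and 11.38 early and 11.19, 11.25, 11.21 and 11.18 late (-0.34 ± 0.06, adjusted p = 0.0092). It was the sole member called of 33 measured miR-17 family targets from earlier literature, whose median was -0.08. Neither of the 2 measured miR-671-5p targets from earlier literature was called. None of 35 interferon-stimulated genes was called (median -0.14, 26 below 0), where 9278 of all 18417 genes lay below 0.

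**Figure D5:**
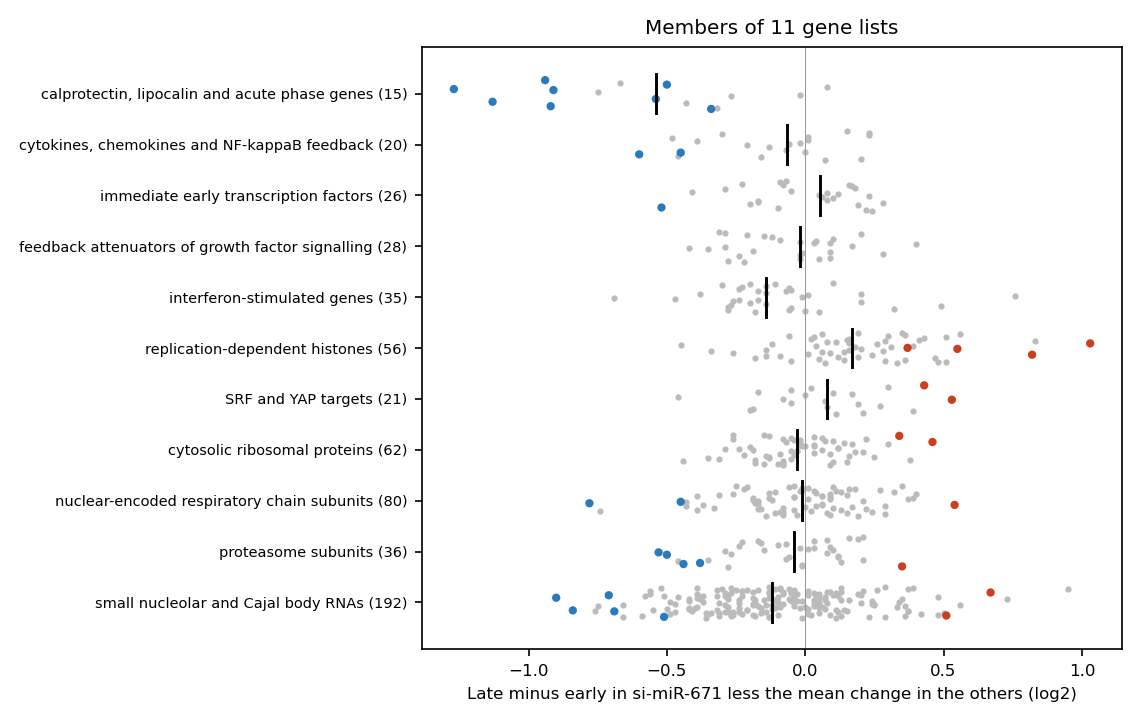
Change of each measured member of 11 gene lists (x axis, log2, late minus early in si-miR-671 less the mean change in the others; number of members in brackets); blue and red points passed limma's test lower and higher, grey points did not, and black bars are list medians. The calprotectin, lipocalin and acute phase list lies to the left with a median of -0.54 and the histone list to the right with a median of 0.17.

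None of the 8 largest called si-miR-671 rises without overlap of early and late arrays, which leaves out CCN2, was called less the others. They were NR4A1 and NR4A3, immediate early orphan nuclear receptors (2.72 and 2.30), the cytokines IL24 (2.40) and LIF (1.90), the ERK inhibitor SPRY4 (1.74), the glucose transporter SLC2A3 (1.59), the urokinase receptor PLAUR (1.45) and FOSL1, an AP-1 subunit (1.35). NR4A1 read 4.20, 5.04, 8.33 and 8.13 early and 9.12, 9.10, 9.07 and 9.28 late, and it changed by 2.34 in si-control and 2.93 in si-miR-20a. Less the others, NR4A1 was at 0.08 ± 0.21, IL24 at -0.02 ± 0.11, LIF at 0.23 ± 0.10 and SPRY4 at -0.02 ± 0.12, and these misses do not show that the changes were equal. Of the 26 immediate early factors 18 rose in si-miR-671 (median 0.51), where 782 of all 18417 genes rose. In si-control 16 of the 26 rose and in si-miR-20a 18. Less the others KLF4 was the member called, at -0.52 ± 0.11 (limma adjusted p = 0.029), where 317 of all genes fell. KLF4 changed by 0.74 in si-control and 0.75 in si-miR-20a but by 0.23 in si-miR-671. Of 28 feedback attenuators and 8 EGF family ligands, none was called less the others (medians -0.02 and 0.04).

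The 8 largest called si-miR-671 falls without overlap of early and late arrays were of 2 kinds. ELF3, an epithelial ETS factor, fell by 1.60 on the late si-miR-671 arrays, DDIT4, a stress-induced mTORC1 inhibitor, by 1.18, NFKBIA by 1.07 and PIK3IP1, an inhibitor of PI3 kinase, by 1.05. In si-control these 4 changed by -1.43, -1.07, -1.15 and -0.94, and in si-miR-20a by -1.19, -1.21, -1.01 and -1.0. Less the others ELF3, DDIT4 and PIK3IP1 stood at -0.29 ± 0.15, -0.04 ± 0.12 and -0.08 ± 0.10, and neither they nor NFKBIA were called. The other 4 of the 8 largest falls were in dimmer genes, whose measured changes in the other transfections were smaller. VNN2 fell by 1.25 in si-miR-671, while it rose by 0.01 in si-control and by 0.04 in si-miR-20a. LYRM9 fell by 1.10 (-0.34 and -0.15 in the others), SNORA20, a small nucleolar RNA, by 1.07 (-0.19 and -0.45) and MIR95, a microRNA gene, by 1.02 (-0.18 and -0.51). Less the others VNN2 was called, and LYRM9 (-0.86 ± 0.40), SNORA20 (-0.76 ± 0.34) and MIR95 (-0.68 ± 0.32) were not.

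Step by step, with 2 arrays on each side, few probe sets were called, and which step had more calls turned on 1 array. From 0 to 30 min no probe set was called less the others (0%; 586 had an unadjusted p under 0.05 in limma). From 30 to 60 min 6 were called (0.0308%), all lower: the 3 probe sets of CFB (-1.03, -1.03 and -1.08), ACAT1 (-0.87), NREP (-0.81) and DCPH1 (-0.87). From 60 to 120 min 2 were called (0.0103%), CDH26, a cadherin (1.15), and CYP24A1, the vitamin D 24-hydroxylase (-1.74), but 566 were called without the first si-miR-671 array at 120 min, while the step from 30 to 60 min reached at most 33 without any 1 array. The genes called lower stood 0.47 below their early level at 60 min (-0.47) and 0.44 below it at 120 min (-0.44), each less the others, and those called higher 0.40 and 0.39 above it.

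The genes called lower had the greater median length. In the RefSeq annotation it was 43816 bases, against 17478 bases for the genes called higher, 24476 bases for all measured genes and 28501 bases for the genes with a mean level of at least 7.5. The median level of the lower genes was 8.06, and that of the higher genes 8.72. The part of gene length in the calls was not tested. For the microRNA loci, CHPF2, whose gene hosts miR-671, was at 0.10 ± 0.09 less the others (adjusted p = 0.59), and MIR17HG, the host transcript of the miR-17-92 cluster that contains miR-20a, at -0.41 ± 0.15 (adjusted p = 0.14). Among 25 genes of microRNA processing and silencing, the helicase MOV10 rose by 0.29 ± 0.06 (adjusted p = 0.033) and the decapping enzyme DCP2 fell by 0.43 ± 0.10 (adjusted p = 0.037). No other member was called and the list median was -0.03, where 114 of all 18417 genes rose and 317 fell.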

How the data were processed

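The assay was the Affymetrix Human Gene 1.0 ST array on RNA of MCF10A cells. The authors deposited normalized log2 values per probe set, made with Affymetrix Expression Console per the submitters' processing notes (version and settings not given in the sources used here). Groups and times were taken from the labels. The table held 33297 probe sets without missing values, and probe sets were named through the platform annotation: 19460 had 1 gene symbol, 1754 had several and 12083 were unnamed here, and the last 2 kinds were left out of the tests. Each of the 12 groups got 1 mean in limma (lmFit, eBayes) over all 24 arrays, with residual df 12, no replicate block, and contrasts of group means. P-values were adjusted by the Benjamini-Hochberg method across all 19460, with calls at 0.05. Values "less the others" subtract, at each time, the mean of the 4 arrays of the other transfections. The tests were run on simulated data with known changes before use. With 2 arrays per group, p-values set each change against the spread between replicates within the 12 groups. Differences of transfection or handling between early and late groups are not part of that spread.

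Genes named were the 14 largest called rises and falls less the others, and the 8 largest in si-miR-671 alone, with late and early arrays not overlapping, up to 3 called members of each of 34 gene lists by p, and MIR17HG and CHPF2. Others (among them SAA2, C3, NREP, DCPH1, CDH26, CYP24A1, and uncalled list members given by value) were named after their values were seen. The comparison, lists and members were chosen with earlier results of these data known. Replicate numbers did not pair the arrays. Microarray number and background limit the precision, and depth does not apply. Alternatives covered normalization, filters, probe set choice, variance model, time points and each array left out. The list of mitochondrially encoded transcripts had no named probe set here. Matplotlib 3.10.9 drew the plots.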

Additional observations from a re-analysis of the deposited data

Results flagged for a closer look

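The genes given here changed from early to late in si-miR-671 differently from the mean of the other transfections, by limma's test of that difference at an adjusted p under 0.05, and all values are log2 changes less the others. The rises were OR2C3 at 1.39, H2AC21 at 1.03, H4C3 and PSAPL1 at 0.82 each, ANKRD40CL at 0.74, CNBD2 at 0.73, ESRRG at 0.70, SNORD55 and RGS13 at 0.67 each, TRPM4 at 0.64, TNFSF18 at 0.63, and LINC00313, NHLH1 and TENM1 at 0.62 each. Smaller rises among list members were H1-5 at 0.55, COX4I2, a cytochrome c oxidase subunit, at 0.54, AMOTL2 at 0.53, RPS27 at 0.46, CCN2 at 0.43, FASN and XPC at 0.42 each, CDC45 at 0.41, SLC7A11, the cystine transporter, at 0.39, RPS14 at 0.34, LAMB3 at 0.30 and MOV10 at 0.29. ANKRD40CL, CNBD2, RGS13, TRPM4 and LINC00313 kept their call in 12 or fewer of the 24 fits that left out 1 array.

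The largest falls were VNN2 at -1.27, SAA3P at -1.16, CHI3L1 at -1.13, SLC6A14 at -1.07, PTGFR at -1.02, CDH11 and SNCAIP at -0.95 each, S100A8 at -0.94, COXFA4L3 and LCN2 at -0.92 each, PLPP3 and CFB at -0.91 each, and SCARNA9 and ACAT1 at -0.90 each. COXFA4L3 kept its call in 8 of the 24 fits. Among list members SULF1 was at -0.89, ATP5MGL, an ATP synthase subunit gene, at -0.78, ZNF763 at -0.76, SNORD54 at -0.69, ZNF33B at -0.66, LOX at -0.64, CENPE at -0.62, IL6 at -0.60, PI3 at -0.54, CEBPB, a C/EBP transcription factor, at -0.53, and KLF4 and CDC7 at -0.52 each. PSMD6 was at -0.50, RBM25, a splicing regulator, at -0.46, CXCL1, NDUFC1 and ZNF721 at -0.45 each, FAS and PSMA6 at -0.44 each, DCP2 at -0.43, CCNG1 and MRPS15 at -0.42 each, PSMB9 at -0.38, SC5D at -0.36 and HIF1A at -0.34.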

How the results depend on the processing

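Each group has 2 arrays, the early and late si-miR-671 arrays hold different positions between the other transfections, and time cannot be told apart from whatever else differed between dishes. The count less the others (458) was 455 with quantile normalization or median centring and 431 with 1 probe set per gene, but 881 with a mean log2 of at least 6, 298 over all probe sets and 873 with eBayes trend and robust, and 122 or 106 with the late arrays at 60 or 120 min alone and 80 or 53 with the early arrays at 0 or 30 min alone. The alternatives with a mean log2 of at least 6, over all probe sets and with 1 probe set per gene change the number of tests. Those with a single late or early time use fewer arrays in the contrast. The cause of the differences in count was not tested. Leaving out 1 array gave 95 (without the second si-miR-671 array at 60 min) to 881 (without the first si-miR-20a array at 120 min). The count in si-miR-671 itself (1804) was 531 with the late arrays at 60 min alone, 1016 and 759 with the early arrays at 0 and 30 min alone and 854 on the 8 arrays alone, and 927 to 2130 with 1 array left out.

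In si-control the count of 473 ran from 291 to 531 without 1 array, and in si-miR-20a 1100 ran from 602 to 2229, with 677 under array weights. Less si-control alone, 101 became 214 (mean of at least 6), 65 (all probe sets), 244 (trend and robust) and 306 (array weights), with 27 to 172 without 1 array. Less si-miR-20a alone, 259 became 661, 134 and 675 under the first 3 of these, with 40 to 1049 without 1 array. The step from 0 to 30 min had 0 calls and 1, 2 or 1 under the filter, trend and robust, or array weights, with 0 to 15 without 1 array. The step from 30 to 60 min had 6 calls and 74, 69 or 347 under the same 3, with 3 to 33. The step from 60 to 120 min had 2 calls, 0 with the filter and 1 with trend and robust, with 0 to 566, the last without the first si-miR-671 array at 120 min. With the replicate number as a block, 438 probe sets were called less the others, 1945 in si-miR-671 itself, 1 from 0 to 30 min and 9 from 30 to 60 min. Over 66 pairs of groups the same-numbered deviations correlated at -0.57 to 0.55, so the numbers were not taken to pair arrays.

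Genes with uncalled values near 0 less the others changed sign: NR4A1 (0.08; -0.01 at 60 min alone, -0.29 with 30 min alone, -0.13 to 0.29 without 1 array), IL24 (-0.02; 0.30, 0.10 with 0 min alone, -0.08 to 0.04), NR4A3 (-0.08; 0.02, 0.33 with 30 min alone, -0.46 to 0.29), SPRY4 (-0.02; 0.14, 0.32 with 0 min alone, -0.10 to 0.07) and NFKBIA (0.01; -0.28 at 60 min alone, -0.08 to 0.09). DDIT4 (-0.04) was at 0.17 at 120 min alone and -0.12 to 0.05 without 1 array, ELF3 (-0.29) at 0.15 at 120 min alone, FOSL1 (-0.17) at 0.05 with 0 min alone and LIF (0.23) at -0.25 with 30 min alone.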
